A study of Homo sapiens with 9 samples.

Results

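The 10 genes HMOX1, HMOX2, BLVRA, BLVRB, BACH1, FTH1, FTL, TFRC, SLC40A1 and FECH, which act in heme breakdown and iron handling, were followed in HCT116 cells, an established human colorectal carcinoma line. The members were taken as the rows whose gene symbol equals one of these names, and all 10 were found among the 31558 genes of the count table. The study asked how the long noncoding RNA CRLM1 (LINC01767) acts in colorectal cancer cells, and polyA RNA was sequenced from 3 lines with 3 biological replicates each. CRLM1-OE cells stably overexpressed CRLM1 from a lentiviral plasmid, Ctrl cells carried the empty plasmid, and Anti cells carried the plasmid with the CRLM1 antisense sequence. The paper describes lentiviral transduction and puromycin selection of HCT116 cells, and calls the cells of this experiment transfected. That all 3 lines were transduced and selected with puromycin is therefore inferred. Whether each line was a single clone or a pool is not given in the sources used here, so a difference between lines and an effect of CRLM1 cannot be told apart on that ground.

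Heme is cut open by heme oxygenase, HMOX1 being the inducible and HMOX2 the constitutive enzyme, which frees iron, carbon monoxide and biliverdin. BLVRA encodes the biliverdin reductase that makes bilirubin from this biliverdin, and BLVRB encodes biliverdin reductase B. BACH1 is a heme-sensitive repressor that occupies the HMOX1 enhancers together with small MAF proteins, where NRF2 (NFE2L2) acts as an activator. The freed iron is stored in ferritin, built of FTH1 and FTL chains, or exported by ferroportin (SLC40A1), while TFRC brings transferrin-bound iron into the cell and FECH inserts iron into protoporphyrin to make heme. When iron is scarce, the iron regulatory proteins bind hairpins called iron-responsive elements in the mRNAs, which blocks translation from a hairpin in the 5′ UTR and protects the mRNA from decay when the hairpins lie in the 3′ UTR.

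Matches to a strict pattern for these hairpins are shown for the members, and hairpins that depart from the pattern are missed. A script searched the GENCODE version 44 transcripts (GRCh38) for a 6-base loop CAGTGN on a stem of 5 pairs, an unpaired C and at least 4 of 5 further pairs, and found matches of 27 bases in 4 members. Capitals mark the loop. The FTH1 match lies in the 5′ UTR at chr11:61967575-61967601 on the minus strand, the FTL match in the 5′ UTR at chr19:48965336-48965362 on the plus strand, and the SLC40A1 match in the 5′ UTR at chr2:189580662-189580688 on the minus strand. The TFRC matches lie in the 3′ UTR on the minus strand, at chr3:196050980-196051006, chr3:196050576-196050602, chr3:196050511-196050537 and chr3:196050464-196050490, in that order.
FTH1: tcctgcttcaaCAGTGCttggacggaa
FTL: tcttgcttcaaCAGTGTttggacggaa
SLC40A1: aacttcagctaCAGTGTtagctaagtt
TFRC hairpin 1: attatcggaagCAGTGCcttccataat
TFRC hairpin 2: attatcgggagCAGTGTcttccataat
TFRC hairpin 3: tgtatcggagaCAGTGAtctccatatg
TFRC hairpin 4: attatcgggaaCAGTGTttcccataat

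The same pattern was found in the 5′ UTR of 6 of 19441 transcripts (0.0309%) and in the 3′ UTR of 11 of 19936 (0.0552%), with 1 transcript taken per gene. No match was found in HMOX1, HMOX2, BLVRA, BLVRB, BACH1 or FECH, which says only that this pattern is not in those UTRs. A match is a description of the sequence, and binding was not measured.

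The libraries held between 33302292 and 44514692 counts. CRLM1 itself had 32751 to 38704 counts in CRLM1-OE, 0 in every Ctrl library and 1540 to 1951 in Anti. Since the counting of strand is not given in the sources used here, reads of the antisense insert and of CRLM1 cannot be told apart in Anti. The colon epithelial markers EPCAM, KRT8, KRT18, KRT19, CDH1 and CDX2 were all detected, with summed levels of 9468 to 9606 CPM in CRLM1-OE, 9237 to 9334 in Anti and 10623 to 10762 in Ctrl. Of 7 macrophage markers 4 were absent from the table or averaged under 10 counts, as were 5 of 7 erythroid and 5 of 6 fibroblast markers. The macrophage markers summed to 5.75 to 6.31 CPM in CRLM1-OE, above Anti at 4.54 to 5.35 and Ctrl at 4.90 to 5.21; their part in the results was not tested. Of the 6 in the table, 2 passed as higher (CD68 and CSF1R) and 1 as lower (MARCO) against Anti. Against Ctrl the log2 fold changes were 0.11 for CD68 (adjusted p = 0.556) and 0.30 for CSF1R (adjusted p = 0.434). The erythroid markers summed to 68.7 to 74.5 CPM over all libraries, mostly from HBG2, which had 1771 to 2778 counts. Summed fibroblast markers, nearly all COL1A1, lay at 15.9 to 19.2 CPM in CRLM1-OE, at 9.7 to 10.8 in Anti and at 8.99 to 9.61 in Ctrl; their part in the results was not tested. In bulk RNA, fewer cells expressing a gene and less RNA per cell cannot be told apart.

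In CRLM1-OE cells HMOX1 was the member that rose most and TFRC the one that fell most, against both control lines. Levels are given as FPKM, which is per length, and changes as log2 fold changes from edgeR's quasi-likelihood test on the counts with TMM scaling. A gene passed at an adjusted p of at most 0.05 over all genes tested, and was called when its fold change was also at least 2. Against Ctrl, 6 members passed as higher (15% of 29846 genes did), namely BACH1, BLVRA, BLVRB, FTL, HMOX1 and HMOX2, and 2 passed as lower, FTH1 and TFRC (16.8%). HMOX1 was the 1 member called higher (2.5%) and TFRC the 1 called lower (0.915%). Against Anti, 5 passed as higher (17.1% of 30183 genes), BLVRA, BLVRB, FTL, HMOX1 and HMOX2, and 3 as lower, FECH, FTH1 and TFRC (18.5%), with FTL and HMOX1 called higher (3.09%) and TFRC called lower (2.56%). Between the control lines, 4 members passed as higher in Anti (11.5% of 29714 genes) and 5 as lower (12.2%), and 0 were called in either direction, the largest change being -0.58 for FTL (0.683% of genes were called higher and 0.38% lower). The genes tested include many with few counts, whereas SLC40A1 is the only such member. CRLM1-OE is compared with 2 controls here, and each comparison shares libraries with the others. Between replicates of a line the chi-square per degree of freedom of the counts was 2.06 to 3.95, where 1 is counting noise alone. The standard errors and p-values rest on this spread within each line.

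**Figure D1:**
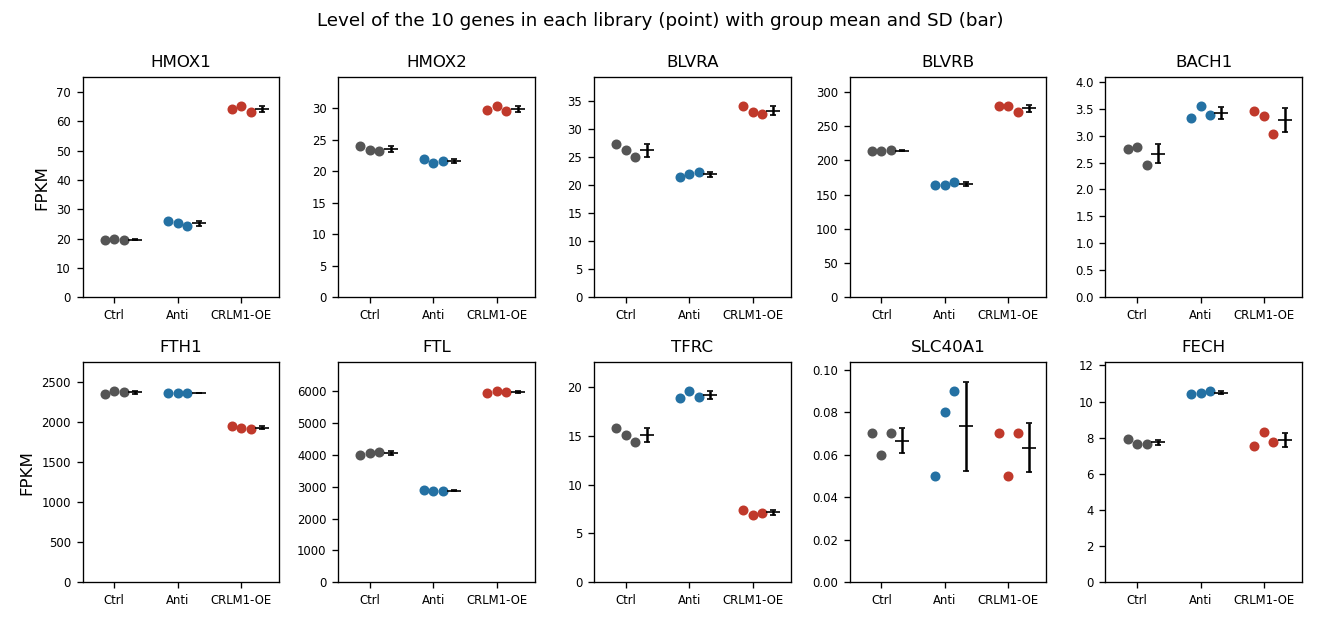
FPKM of the 10 genes in each of the 9 libraries (points), with the mean and SD of 3 libraries per group (bar); each panel has its own axis from 0. HMOX1 and FTL are highest and TFRC and FTH1 lowest in CRLM1-OE, while the 3 groups overlap for SLC40A1.

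HMOX1 stood at 64.4, 65.3 and 63.1 FPKM in the CRLM1-OE libraries. It stood at 19.6, 19.8 and 19.6 FPKM in Ctrl and at 25.9, 25.4 and 24.3 FPKM in Anti. All CRLM1-OE libraries were above every control library, and the Anti libraries were above the Ctrl libraries. The log2 fold change was 1.59 ± 0.03 (SE) against Ctrl and 1.30 ± 0.03 against Anti (3.02-fold and 2.47-fold, both at the smallest adjusted p written, 1e-300). Anti exceeded Ctrl by 0.27 ± 0.04 on the log2 scale (adjusted p = 1.3e-09). HMOX1 spans chr22:35380361-35394214 (GRCh38) on the plus strand and overlaps no other annotated gene.

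HMOX2, the constitutive heme oxygenase, moved far less. It had 29.7, 30.3 and 29.5 FPKM in CRLM1-OE, 24.03, 23.43 and 23.12 in Ctrl and 21.9, 21.4 and 21.6 in Anti, so the groups did not overlap. The log2 fold change was 0.23 against Ctrl (adjusted p = 5.1e-12) and 0.42 against Anti (adjusted p = 3.6e-43), and Anti was below Ctrl by a log2 change of -0.22 (adjusted p = 1.2e-09). HMOX2 overlaps NMRAL1 on the opposite strand, and how strand was counted is not given in the sources used here. NMRAL1 had log2 fold changes of -0.14 against Ctrl and -0.08 against Anti, opposite in sign to HMOX2. In Anti against Ctrl the NMRAL1 change was -0.09, of the same sign as HMOX2. Of these NMRAL1 changes only that of CRLM1-OE against Ctrl passed.

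The count ratio of HMOX1 to HMOX2, which needs no scaling between libraries, was 1.23 ± 0.01 (SD, n = 3) in CRLM1-OE, against 0.477 ± 0.011 in Ctrl and 0.665 ± 0.021 in Anti. The ratio was 2.58-fold higher in CRLM1-OE than in Ctrl and 1.85-fold higher than in Anti. The groups did not overlap, and the two-sided exact permutation test gave p = 0.1 for each pair, the smallest p that 3 libraries against 3 allow. Per length, HMOX1 was below HMOX2 in Ctrl (FPKM ratio 0.835 ± 0.018) and above it in CRLM1-OE (2.15 ± 0.01).

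Both biliverdin reductase genes rose against each control line. BLVRB, the more abundant of the pair, had 279, 280 and 270 FPKM in CRLM1-OE, 214, 214 and 215 in Ctrl and 164, 164 and 169 in Anti. Its log2 fold change was 0.25 against Ctrl (adjusted p = 1.1e-22), 0.69 against Anti (adjusted p = 2.5e-194) and -0.47 for Anti against Ctrl (adjusted p = 2.2e-68). BLVRA had 34.12, 33.02 and 32.65 FPKM in CRLM1-OE, 27.38, 26.22 and 24.98 in Ctrl and 21.5, 22.0 and 22.3 in Anti. Its log2 fold changes were 0.23, 0.56 and -0.35 in the same order, all of them past the test. For HMOX2, BLVRA and BLVRB alike, Ctrl lay between Anti and CRLM1-OE, whereas for HMOX1 Anti lay between.

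BACH1 mRNA, which encodes the repressor of HMOX1, had 3.45, 3.37 and 3.03 FPKM in CRLM1-OE, 2.75, 2.78 and 2.46 in Ctrl and 3.32, 3.55 and 3.39 in Anti. CRLM1-OE and Anti overlapped, and both lay above Ctrl. The log2 fold change against Ctrl was 0.19 ± 0.06 (adjusted p = 0.0083). BACH1 no longer passed against Ctrl without CRLM1-OE replicate 1 (adjusted p = 0.1) or without Ctrl replicate 3 (adjusted p = 0.0807). Against Anti the change was -0.10 with a 95% interval from -0.22 to 0.01 (adjusted p = 0.16).

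**Figure D2:**
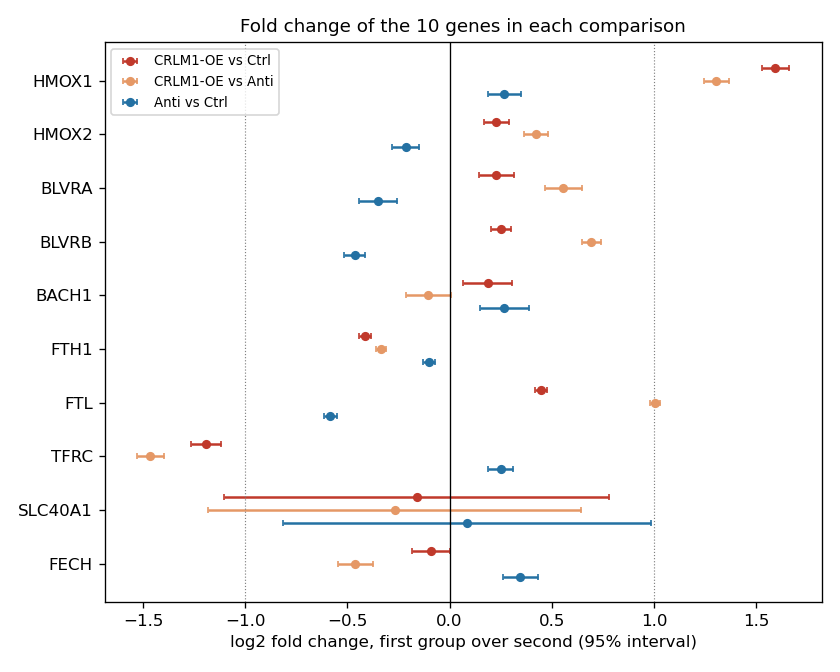
Log2 fold change of each of the 10 genes (horizontal axis, first group over second) in the 3 comparisons, with 95% intervals from the edgeR fit; dotted lines mark 2-fold. HMOX1 lies beyond 2-fold higher and TFRC beyond 2-fold lower in both CRLM1-OE comparisons, and the SLC40A1 intervals all span 0.

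The 2 ferritin chains moved in opposite directions in CRLM1-OE. FTL, the light chain, had 5952, 6006 and 5965 FPKM in CRLM1-OE, 3989, 4055 and 4102 in Ctrl and 2903, 2870 and 2867 in Anti. FTH1, the heavy chain with ferroxidase activity, had 1946, 1927 and 1912 FPKM in CRLM1-OE, 2350, 2389 and 2376 in Ctrl and 2362, 2357 and 2359 in Anti. FTL was thus highest and FTH1 lowest in every CRLM1-OE library, and for FTH1 the control lines overlapped in FPKM. The FPKM carry no TMM factors, which the fold changes use, so overlap can differ between the scales.

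FTL rose by a log2 fold change of 0.45 ± 0.01 against Ctrl (adjusted p = 1.5e-210) and of 1.01 ± 0.01 against Anti (adjusted p = 1e-300), and was lower in Anti than in Ctrl (-0.58, adjusted p = 1e-300). The value against Anti sits at the 2-fold limit, and without Anti replicate 3 FTL was no longer called (lowest log2 fold change 0.999). FTH1 fell by 0.41 on the log2 scale against Ctrl (adjusted p = 8.2e-167) and by 0.34 against Anti (adjusted p = 8.3e-154). Anti against Ctrl gave -0.10 (adjusted p = 3.3e-10). That change no longer passed with limma on FPKM (log2 change -0.0075, adjusted p = 0.836) and turned to 0.0059 with total counts as the only scaling (adjusted p = 0.812). FTH1 overlaps BEST1 on the opposite strand. BEST1 changed by -0.16 against Ctrl, -0.07 against Anti and -0.11 for Anti against Ctrl, all past the test and of the same sign as FTH1. The 20 ferritin and other member pseudogenes summed to 61 to 82 counts per library, with FTH1P15 at 19 to 32.

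FTH1 counts divided by FTL counts gave 0.594 ± 0.007 (SD, n = 3) in the CRLM1-OE libraries. The quotient was 1.08 ± 0.01 in Ctrl libraries and 1.51 ± 0.01 in Anti libraries. Both control lines lay above CRLM1-OE with no overlap, the two-sided exact permutation p being 0.1 for each pair, again the smallest possible. The ratio in CRLM1-OE was 0.551 times that in Ctrl and 0.394 times that in Anti. Both mRNAs carry the 5′ UTR hairpin printed above, and its part in these mRNA levels was not tested.

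**Figure D3:**
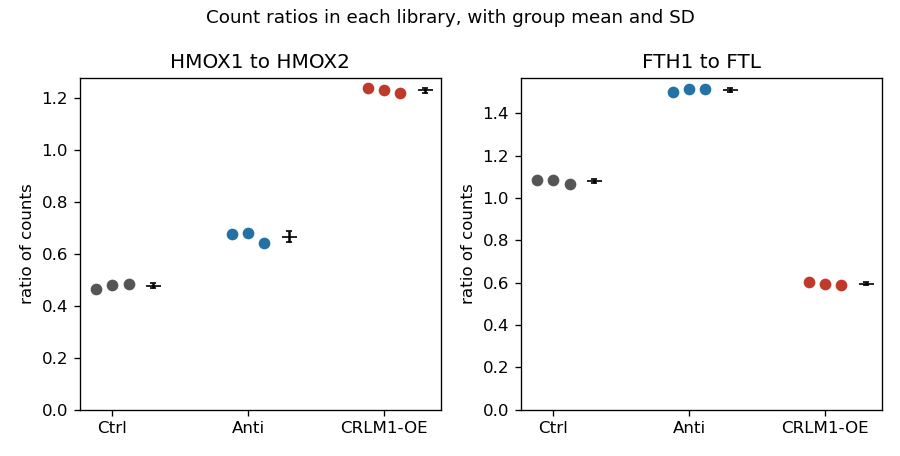
Ratio of counts of HMOX1 to HMOX2 (left) and of FTH1 to FTL (right) in each library, with the mean and SD of 3 libraries per group; both axes start at 0. The HMOX1 to HMOX2 ratio is highest in CRLM1-OE at 1.23 and the FTH1 to FTL ratio lowest at 0.594.

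TFRC, the transferrin receptor, fell. It had 7.42, 6.91 and 7.13 FPKM in CRLM1-OE, 15.8, 15.1 and 14.4 in Ctrl and 18.9, 19.6 and 19.0 in Anti, with no overlap between any groups. The log2 fold change was -1.19 ± 0.04 against Ctrl (2.28-fold lower, adjusted p = 7.1e-228) and -1.46 ± 0.03 against Anti (2.76-fold lower, adjusted p = 1e-300). Anti exceeded Ctrl by 0.25 (adjusted p = 8.1e-15). TFRC is the member whose hairpins lie in the 3′ UTR, and their part in its mRNA level was not tested.

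SLC40A1, the iron exporter ferroportin, was near the limit of detection, at 6 to 11 counts in CRLM1-OE, 8 to 12 in Ctrl and 8 to 13 in Anti. The groups overlapped and no difference was detectable at this depth. The 95% interval of the log2 fold change against Ctrl ran from -1.10 to 0.78.

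FECH, the last enzyme of heme synthesis, had 7.56, 8.31 and 7.79 FPKM in CRLM1-OE, 7.91, 7.68 and 7.64 in Ctrl and 10.4, 10.5 and 10.6 in Anti. In FPKM, CRLM1-OE and Ctrl overlapped and Anti was above both. The FPKM carry no TMM factors, which the fold changes use, so overlap can differ between the scales. The log2 fold change was -0.09 against Ctrl with a 95% interval from -0.18 to 0.00 (adjusted p = 0.14), and -0.46 against Anti (adjusted p = 1.9e-25). Anti exceeded Ctrl by 0.35 (adjusted p = 7.6e-14).

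Around these members, genes of iron uptake and reduction were mostly lower in CRLM1-OE. Of 13 tested, 10 passed as lower and 1 as higher against Ctrl, and 9 as lower and 3 as higher against Anti, TFRC included. The median log2 fold change was -0.36 and -0.64 in turn over the 12 with a mean of at least 10 counts, beside -0.01 and -0.02 over all such genes. With limma on FPKM 6 passed as lower against Ctrl. The number higher against Anti was 1 without Anti replicate 2, with DESeq2, with limma on log2(FPKM + 0.1) and with at least 10 counts in every sample. The number higher against Ctrl ran from 0 (without CRLM1-OE replicate 3, Ctrl replicate 1 or Ctrl replicate 3) to 2 (without CRLM1-OE replicate 2). In Anti against Ctrl 7 passed as higher and 1 as lower, with a median of 0.25.

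LCN2, a siderophore-binding protein, fell by 1.01 on the log2 scale against Ctrl (adjusted p = 3.7e-63) and by 1.80 against Anti, at 12.6 ± 0.4 FPKM in CRLM1-OE, against 23.5 ± 0.6 in Ctrl and 42.5 ± 1.0 in Anti (SD, n = 3). TFR2, the second transferrin receptor, fell by 0.89 and 0.78, and SLC11A2, the divalent metal transporter, by 0.55 and 0.85. The ferrireductase genes STEAP1, STEAP2 and STEAP3 had log2 fold changes of -0.23, -0.43 and -0.33 against Ctrl and of -0.70, -0.84 and -0.57 against Anti, all past the test. SLC39A14, a metal importer, had -0.19 and -0.54. SLC22A17, a receptor for LCN2, was higher than in Anti (0.53) and not past the test against Ctrl (-0.13, adjusted p = 0.15). The other genes that passed as higher, named after their values were seen, were STEAP4 in both comparisons and TF against Anti, at no more than 20 counts in any library.

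**Figure D4:**
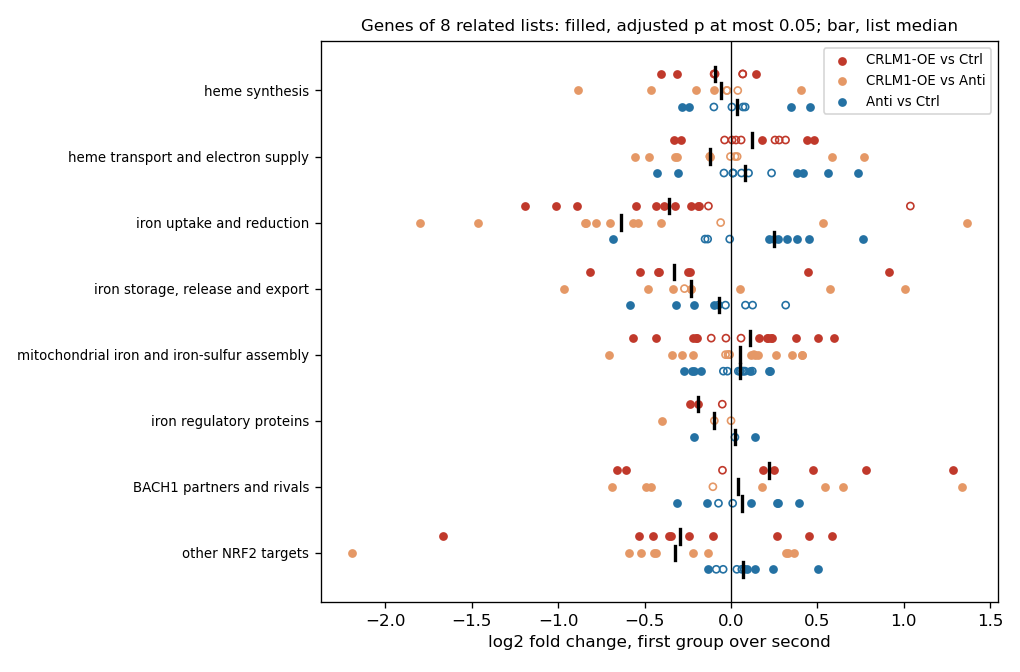
Log2 fold change of the genes of 8 related lists with a mean of at least 10 counts in each comparison (colour); filled points passed at an adjusted p of at most 0.05, open ones did not, and the bar is the list's median. Iron uptake and reduction has the lowest medians in CRLM1-OE, at -0.36 against Ctrl and -0.64 against Anti.

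Of 13 genes tested for iron storage, release and export, the members FTH1 and FTL included, 2 passed as higher and 6 as lower against Ctrl. Against Anti 3 and 5 did, and the list medians were -0.33 and -0.23 in turn. Over all genes tested the shares were 15% and 16.8% against Ctrl, and 17.1% and 18.5% against Anti. Those genes include many with few counts. Of the 13 listed, 8 averaged at least 10 counts in the comparison with Ctrl and 9 in that with Anti. NCOA4, the receptor that delivers ferritin to lysosomes, was lower by log2 changes of -0.24 and -0.23. The number higher against Anti was 1 without CRLM1-OE replicate 1. HEPH, a ferroxidase, had -0.81 and -0.96, and HFE had -0.53 and -0.48. With limma on log2(FPKM + 1) neither passed against Ctrl, at -0.22 for HEPH (adjusted p = 0.0984) and -0.18 for HFE (adjusted p = 0.106), and likewise with the pseudocount of 0.1. BMP6, a ligand known for raising hepcidin, was higher by 0.91 (adjusted p = 5.5e-05) and 0.57 (adjusted p = 0.011), at 0.3 to 0.603 FPKM on group average. BMP6 no longer passed against Anti without CRLM1-OE replicate 1 (adjusted p = 0.0514). In Anti against Ctrl 4 passed as lower and 0 as higher (0 or 1 higher over the alternatives).

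For heme synthesis, the member FECH included, 1 of 8 genes tested passed as higher and 2 as lower against Ctrl. Against Anti 1 and 4 of 9 did, and the list medians were -0.09 and -0.06 in turn. ALAS1, the rate-limiting enzyme outside red cells, had log2 fold changes of -0.31 against Ctrl (adjusted p = 2.8e-28) and -0.10 against Anti, the latter no longer passing with limma on FPKM and with total counts. UROS, uroporphyrinogen III synthase, had -0.40 and -0.88. Among 12 genes of heme transport and electron supply, 3 passed as higher and 2 as lower against Ctrl, and 2 and 5 against Anti. With total counts as the only scaling, 7 passed as higher against Ctrl.

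POR, the reductase that supplies heme oxygenase with electrons, was lower, at -0.29 against Ctrl (adjusted p = 4.6e-19) and -0.32 against Anti (adjusted p = 7.9e-28). ABCB6, a porphyrin transporter, was higher by 0.48 and 0.77, and HEBP1, a heme-binding protein, by 0.18 and 0.58. FLVCR1, a heme exporter, was lower than in Anti (-0.56) with no detectable difference from Ctrl (0.03, 95% interval from -0.22 to 0.28). ABCB10, a mitochondrial transporter, was higher in Anti than in Ctrl by 0.73.

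Among 16 genes of mitochondrial iron and iron-sulfur assembly, 8 passed as higher and 5 as lower against Ctrl, and 7 and 4 against Anti. ISCU, the assembly scaffold, was higher by 0.60 and 0.35, and FDXR, ferredoxin reductase, by 0.51 and 0.41. HSPA9, the mitochondrial chaperone, was lower by -0.57 and -0.70. The number lower against Ctrl was 2 with limma on FPKM and with total counts, and 3 with DESeq2 and without CRLM1-OE replicate 1 or 3 or Ctrl replicate 1 or 2.

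IREB2, an iron regulatory protein, had a log2 fold change of -0.23 against Ctrl and -0.40 against Anti (adjusted p = 0.0003 and 7.5e-12). ACO1, the other one, had -0.19 against Ctrl (adjusted p = 1e-05) and 0.00 against Anti (adjusted p = 0.99). FBXL5, which targets IREB2 for degradation, did not pass in any comparison. Of these 3 genes 2 passed as lower against Ctrl, and 0 did with limma on FPKM or with total counts.

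Among BACH1, its partners and its rivals, 5 of 8 passed as higher and 2 as lower against Ctrl, and 4 and 3 against Anti. NFE2L2 fell by 0.61 and 0.49 on the log2 scale, from 14.9 ± 0.5 FPKM in Ctrl and 14.4 ± 0.4 in Anti to 10.6 ± 0.4 in CRLM1-OE. KEAP1, which targets NRF2 for degradation, fell by 0.66 and 0.69. The small MAF genes rose, MAFK by 0.78 and 0.65, MAFG by 0.48 and 0.18 and MAFF by 0.25 and 0.54. BACH2, a relative of BACH1, was higher by 1.29 and 1.34, at a mean of 0.947 FPKM in CRLM1-OE.

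Of 10 other genes known as NRF2 targets, 3 passed as higher and 7 as lower in each CRLM1-OE comparison. Over all genes tested, 15% passed as higher and 16.8% as lower against Ctrl, and 17.1% and 18.5% against Anti. Those genes include many with few counts, whereas all 10 listed targets averaged at least 10. When genes under 10 counts in any library of a comparison were left out, 14833 remained against Ctrl. Of these, 4516 passed as higher and 4674 as lower. The same filter left 14900 genes against Anti, with 5015 passing as higher and 5266 as lower. The part of NRF2 in the HMOX1 change was not tested. SLC7A11, the cystine transporter, fell by 1.67 against Ctrl and had a change of -2.19 against Anti on the log2 scale, at 1.67 ± 0.06 FPKM in CRLM1-OE, against 4.89 ± 0.17 in Ctrl and 7.41 ± 0.15 in Anti. TXNRD1, thioredoxin reductase, fell by 0.53 and 0.59, and NQO1, the quinone reductase, by 0.36 and 0.52. GCLM, a subunit of the glutathione-making ligase, rose by 0.58 and 0.32. The list medians were -0.29 and -0.33.

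The genes with the pattern nearest to HMOX1 were MTCL1, IRS2, F2RL1, NLRP1 and LTB4R. Nearness was the root mean square difference of centred log2 CPM over the 9 libraries among 11702 genes with a mean of at least 100 counts, and was 0.0839, 0.084, 0.101, 0.104 and 0.123 in turn. Their log2 fold changes against Ctrl ranged from 1.41 to 1.56, beside 1.59 for HMOX1. Since they were chosen for this pattern, these values are a description.

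**Figure D5:**
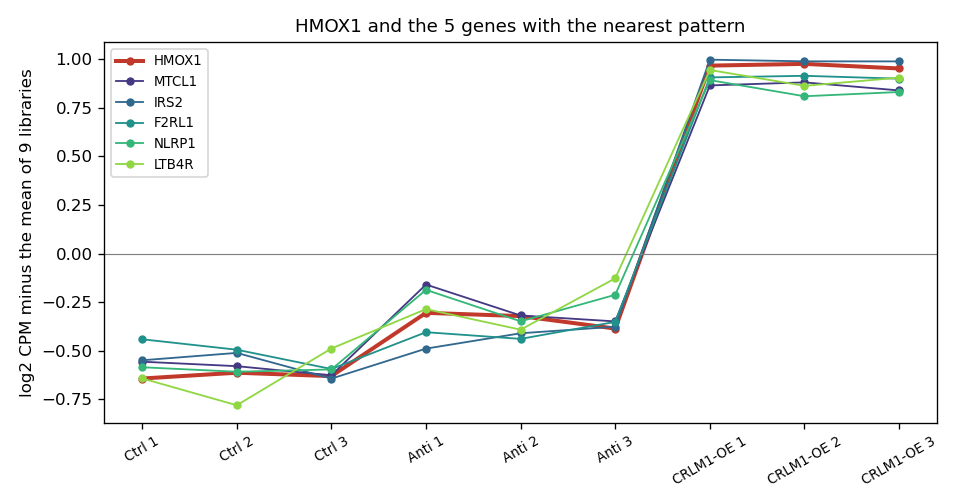
Log2 CPM minus its mean over the 9 libraries (vertical axis) for HMOX1 and the 5 nearest genes in each library. All 6 genes are highest in the 3 CRLM1-OE libraries and below their mean in the 6 control libraries.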

How the data were processed

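PolyA RNA of 9 HCT116 samples was sequenced in pairs. The authors trimmed reads with the FASTX-Toolkit, aligned them to GRCh38 with TopHat2 and kept unique reads; the submitters' processing notes also name bcl2fastq and edgeR. The deposited counts are whole reads per gene, not normalized, and the deposited FPKM values were scaled by the authors for length and depth. How strand and read pairs were counted is not given in the sources used here.

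Genes with at least 1 count in the 6 samples of a comparison were tested with edgeR 4.0.16 (R 4.3.3; TMM, quasi-likelihood test, Benjamini-Hochberg adjustment over all genes tested), checked on simulated data. Alternatives used limma 3.58.1 on log2(FPKM + 0.1) and log2(FPKM + 1), which understates the change of low genes, DESeq2 1.42.0, other filters and scalings, a replicate block and each replicate left out. Ratios were compared by exact permutation with scipy 1.17.1. Depth was 33302292 to 44514692 counts, so 3 counts equal 0.0674 to 0.0901 CPM (counting error only, since reads carry no molecular identifiers). FPKM ratios exceed the fitted folds against Ctrl because TMM factors were 1.046 to 1.053 in CRLM1-OE and 0.945 to 0.955 in Ctrl.

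Members and lists were chosen with earlier results of these data known. Named were all members, 11 fixed regulators, list genes with adjusted p of at most 0.05, an absolute log2 change of at least 0.5 and a mean of at least 50 counts, and the 5 genes nearest to HMOX1. Positions are from GENCODE version 44, which shares the GRCh38 assembly with the authors' annotation.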

Additional observations from a re-analysis of the deposited data

How the results depend on the processing

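HMOX1 kept its direction and passed in all 15 alternatives of each comparison, with log2 fold changes from 1.58 to 1.74 against Ctrl, from 1.27 to 1.36 against Anti and from 0.25 to 0.37 for Anti against Ctrl. Of 445 member values 436 kept their direction and whether they passed. FECH against Ctrl turned to 0.025 and 0.023 with limma (pseudocounts 0.1 and 1) and to 0.0497 with total counts, FTH1 in Anti against Ctrl turned to 0.0059 with total counts, and SLC40A1 in Anti against Ctrl ranged from -0.13 to 0.30 with a replicate left out, below 0 without Anti replicate 3. Total counts moved the median of all genes with a mean of at least 10 counts from -0.01 to 0.13 against Ctrl, from -0.02 to 0.04 against Anti and from 0.01 to 0.11 for Anti against Ctrl. The cause of the other changes was not tested.

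Members called lower against Ctrl numbered 0 with limma on log2(FPKM + 1), where TFRC fell by 0.98, and members called higher against Anti numbered 1 to 2 with a replicate left out. Ratios kept direction and size in all 42 values.

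Counts over all genes moved more. With limma on log2(FPKM + 1), 81 genes were called higher and 17 lower against Ctrl, 127 and 99 against Anti, and 3 and 1 for Anti against Ctrl. With limma on log2(FPKM + 0.1), 94 were called lower against Ctrl, 618 higher and 412 lower against Anti, and 86 and 30 for Anti against Ctrl. At least 10 counts in every sample left 352 and 117, 460 and 441, and 58 and 23. DESeq2 called 162 lower against Ctrl, and 82 higher and 36 lower for Anti against Ctrl, where filterByExpr gave 126 and 59 and total counts 71 lower. Genes that passed as lower numbered 2683 and 2666 with limma and 2951 with total counts against Ctrl, and 1770, 1753 and 2029 for Anti against Ctrl, where 5500 passed as higher with total counts.

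Other genes that turned were not past the test in the alternatives where they turned, save NCOA4 with total counts. ACO1 against Anti gave -0.0024 in 1 fit of all 9 samples and from -0.0296 to 0.0337 with a replicate left out, below 0 without Anti replicate 2 (-0.015) or CRLM1-OE replicate 1. FBXL5 against Ctrl gave 0.0689 and 0.0601 with limma and 0.0913 with total counts. KEAP1 in Anti against Ctrl ran from -0.0023 to 0.0332 with a replicate left out, below 0 without Anti replicate 2. It newly passed as higher with total counts, at 0.115 (adjusted p = 0.00169). With limma it also passed, at 0.1004 (pseudocount 0.1, adjusted p = 0.0215) and 0.097 (pseudocount 1, adjusted p = 0.0216). NCOA4 in Anti against Ctrl gave 0.0605 and 0.0585 with limma, 0.0736 with total counts (adjusted p = 0.0421) and from -0.0517 to 0.00505 with a replicate left out, above 0 without Ctrl replicate 2. Of 1050 values of named genes other than the members, 1006 kept their direction and whether they passed, 27 no longer passed, 6 newly passed and 11 turned.

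Replicate numbers did not pair the samples: residuals of same-numbered samples correlated between -0.101 and 0.086. With a replicate block 72 genes were called lower in Anti against Ctrl in place of 113. No member changed in whether it passed or was called, and among the other named genes IREB2 in that comparison no longer passed.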
